A study of Mus musculus with 16 samples.

Results

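The Ifi200 family is a cluster of interferon-inducible genes on mouse chromosome 1, and 10 of its genes are described here in bone marrow-derived macrophages: Ifi203, Ifi204, Ifi205, Ifi206, Ifi207, Ifi208, Ifi209, Ifi211, Ifi213 and Mndal. The 10 were listed by name among 54838 gene identifiers, and they were selected on the same counts that are reported below, with the values of all 4 groups known. Their levels and changes in every contrast are therefore a description, and no p-value is given for any of them. All 10 passed the filter on low counts, as did 12612 genes in all, and Ifi208 and Ifi213 passed it through the groups in which they are high.

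The cells came from Apoe-deficient mice. Their genotype is given as B6.129P2-Apoetm1Unc/J and their strain as C57BL/6J, and all groups, controls included, carry the Apoe mutation. Macrophages were grown from marrow with L929-cell-conditioned medium, moved to medium without it for 24 hours and then treated. There were 4 groups of 4 RNA sequencing libraries. In the TPCA-1+TNFα group the cells were given 500 nM TPCA-1, an inhibitor of IKK2, the kinase that activates NF-kB, for 1 h before TNFα (50 ng/ml, 24 h). In the TMP195+TNFα group they were given 5 µM TMP195, an inhibitor of class IIa histone deacetylases, for 1 h before the same stimulation. The TNFα group had the cytokine alone, and the DMSO group had the solvent. The labels do not say whether cells given TNFα alone also received the solvent, nor whether the 4 replicates came from separate animals, so the spread between replicates may be technical in part.

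Proteins of this family carry a pyrin domain, which binds other pyrin domains, or a HIN-200 domain, which binds DNA, or both. They are known as nuclear and cytosolic DNA-binding proteins that act upstream of STING and of inflammasomes, and as regulators of growth and differentiation. Type I interferon raises many of them through a transcription factor complex that contains IRF9 and binds the interferon-stimulated response element (ISRE). Aim2, the DNA sensor of the AIM2 inflammasome, lies outside the described set, as do Ifi202b, Ifi214 and the pseudogene Ifi203-ps.

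The 10 genes lie between positions 173468485 and 174031810 of chromosome 1 (GRCm38, GENCODE M21), a stretch of 563 kb that holds 20 annotated genes. Of the 10 genes, 8 are on the minus strand and 2, Ifi208 and Ifi209, on the plus strand. Within the annotation the span of Mndal encloses Ifi211 and overlaps Ifi203, and Mndal shares 37 exon bases with Ifi203 and 118 with the pseudogene Gm38050, which is 4.27% of its exon bases. The genes are close copies, and only uniquely mapped reads were counted. Of the 50-base words in its transcripts, Ifi211 shared 72.8% with other genes of the family, 44.7% with Ifi205 alone. The share was 33.4% in Ifi209, all of it with Ifi214, and 5.39% in Ifi207, the lowest of the 10. Levels of Ifi211 and Ifi209 are thus the most uncertain, since reads from the shared words could be dropped or placed with a relative.

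Promoter sequences show how alike the 10 genes are upstream. RefSeq windows (GRCm38.p6) of 300 bases, from 250 before to 50 after the start, were at hand for 9 of the 10 genes, and Ifi204 is named only. The ISRE letters GAAANNGAAA, searched on both strands, occurred in 9 of the 11 windows of these genes, against 3.44% of all 32851 windows. By gene that was 8 of the 9, some of whose windows are near copies of each other. In the stretches below, each 35 bases long and written 5′ to 3′ on the gene's strand, capitals mark the match that lies nearest upstream of the start. Ifi209 has no match, and its capitals mark the bases at the place of the Ifi214 match. The stretches are shown because the letters recur, in a pair of spellings, in genes of very different level.

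Ifi213: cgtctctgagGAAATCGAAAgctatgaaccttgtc
Ifi208: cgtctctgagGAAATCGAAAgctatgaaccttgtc
Ifi206: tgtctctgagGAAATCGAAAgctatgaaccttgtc
Ifi203: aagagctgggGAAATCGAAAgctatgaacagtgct
Mndal: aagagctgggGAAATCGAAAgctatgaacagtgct
Ifi207: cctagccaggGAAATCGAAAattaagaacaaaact
Ifi205: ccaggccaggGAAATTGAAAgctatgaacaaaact
Ifi211: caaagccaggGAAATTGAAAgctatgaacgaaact
Ifi214: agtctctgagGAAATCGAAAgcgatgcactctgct
Ifi209: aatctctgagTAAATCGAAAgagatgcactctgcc

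The match was spelled GAAATCGAAA in 6 genes and GAAATTGAAA in 2, Ifi205 and Ifi211. It began 35 to 41 bases upstream of the start in Ifi203, Mndal, Ifi211, Ifi206 and Ifi207. It began 58 bases upstream in Ifi208, 73 in Ifi213 and 134 in Ifi205. The Ifi205 window held a further match on the opposite strand, downstream of its start, also in capitals in the whole window. Ifi203 and Mndal each have an additional RefSeq start, and the printed stretch comes from only 1 of their windows. The other window of Ifi203 held no match. That of Mndal held a match on the opposite strand, 54 bases upstream of its start. Ifi209 had no match: at the place where its relative Ifi214 has one, 79 bases upstream in both, it differs by G1T, counted from the first base of the Ifi214 match. The windows of Ifi209 and Ifi214 were 95.3% identical, those of Ifi208 and Ifi213 89.5%, and those of Ifi207 and Ifi211 85.9%. The GAS letters TTCNNNGAA were in 0 of the 11 windows of the 9 genes, against 8.30% of all windows. The NF-kB consensus was matched in 2 of the 11 windows, against 8.46% of all windows. They were the window of Ifi209 and the window of Ifi203 that held no ISRE match. A match is only a spelling, and whether a factor binds there was not measured.

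Whole windows are given for the genes at the ends of the range of response. Ifi213 (chr1:173599223-173599522, minus strand) is among the most strongly lowered under TPCA-1, Ifi207 (chr1:173741760-173742059, minus strand) is the least lowered, and Ifi205 (chr1:174031706-174032005, minus strand) is the gene that TNFα raised.
Ifi213: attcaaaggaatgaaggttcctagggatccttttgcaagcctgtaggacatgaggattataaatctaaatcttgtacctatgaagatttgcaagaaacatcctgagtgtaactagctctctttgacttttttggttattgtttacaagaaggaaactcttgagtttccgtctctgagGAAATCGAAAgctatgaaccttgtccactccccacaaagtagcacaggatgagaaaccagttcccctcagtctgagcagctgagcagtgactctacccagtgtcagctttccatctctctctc
Ifi207: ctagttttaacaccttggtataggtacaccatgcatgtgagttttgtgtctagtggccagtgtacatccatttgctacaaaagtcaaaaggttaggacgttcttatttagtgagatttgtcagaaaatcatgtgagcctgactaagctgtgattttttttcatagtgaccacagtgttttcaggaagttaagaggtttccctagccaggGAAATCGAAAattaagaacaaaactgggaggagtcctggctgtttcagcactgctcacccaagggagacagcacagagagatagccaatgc
Ifi205: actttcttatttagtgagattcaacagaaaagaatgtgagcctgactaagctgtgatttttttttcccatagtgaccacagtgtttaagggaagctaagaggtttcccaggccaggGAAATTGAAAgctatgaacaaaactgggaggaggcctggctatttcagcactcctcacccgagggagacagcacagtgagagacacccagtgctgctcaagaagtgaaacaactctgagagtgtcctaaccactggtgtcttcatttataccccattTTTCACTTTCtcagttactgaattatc

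Counted reads per library ranged from 7.49 to 31.6 in units of 1e6. Libraries stood apart in 2 ways. TPCA-1+TNFα 2 was the shallowest, and its unmapped share was 44.0%, while the other 15 had 4.0% to 7.11%. The libraries numbered 2 in all 4 groups held almost no reads of Ifi208 and of Ifi202b, whose level is known to differ between inbred mouse strains. Macrophage markers were high everywhere as a sum, at 13242 to 27664 counts per 1e6 counted reads (CPM), with Lyz2 the most abundant in every group. Of the 10 markers 5 were called lower and 1 higher in TNFα than in DMSO (edgeR, adjusted p under 0.05), against 12.4% and 10.9% of all genes. In TPCA-1+TNFα against TNFα 4 were lower, among them Fcgr1, Csf1r and Itgam, and 0 higher, against 9.72% and 9.67%. In TMP195+TNFα against TNFα 1 was lower and 0 higher, against 3% and 2.95%. With a term for replicate number in the fit (the replicate block), 4 were lower and 1 higher there, against 6.56% and 6.91%. In that fit S100a8 was called lower too. Of 4 stromal and endothelial markers, Col3a1 was at 0 in every group, while the sum was 15.6 to 40.0 CPM in TPCA-1+TNFα, against 3.75 to 7.31 CPM in TNFα, nearly all of it Pecam1, which macrophages also express. The neutrophil sum, mostly S100a8, was 13.7 to 41.6 CPM in TPCA-1+TNFα, 24.9 to 47.8 in TMP195+TNFα, 46.7 to 87.7 in TNFα and 0.780 to 2.27 in DMSO, with Ly6g, Elane and Retnlg at 0 in every group. The T and NK cell sum, mostly Cd4, was 5.49 to 8.92 CPM in TPCA-1+TNFα, 6.99 to 8.99 in TMP195+TNFα, 4.71 to 6.77 in TNFα and 10.1 to 13.8 in DMSO. The dendritic cell sum was 0.733 to 2.03 CPM in TPCA-1+TNFα, against 0.284 to 0.723 in TNFα. Apoe had 1 to 11 reads in each library.

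Under TPCA-1 the whole family was low. The 10 genes together made up 163 ± 27.1 CPM in TPCA-1+TNFα, 1217 ± 388 in TMP195+TNFα, 919 ± 236 in TNFα and 1212 ± 322 in DMSO (mean ± SD, n = 4 each). In each of the 10 genes all 4 libraries with TPCA-1 lay below all 4 with TNFα alone, against 9.75% of all genes tested that did so. For Ifi208 that order rests on depth scaling alone, since TPCA-1+TNFα 1 and TNFα 2 each held 1 read, at 0.0489 and 0.0491 CPM. All 10 were also called lower by the fit (edgeR, adjusted p under 0.05), against 9.72% of all genes, a count from which nothing is read because the genes were chosen on these values. The median log2 fold change of the 10 was -4.07, against 0.02 over all genes tested. In bulk RNA, fewer cells of a type and less RNA per cell cannot be told apart. The macrophage marker, Pecam1, S100a8 and dendritic cell marker levels given above moved with these changes, and their part in them was not tested.

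**Figure D1:**
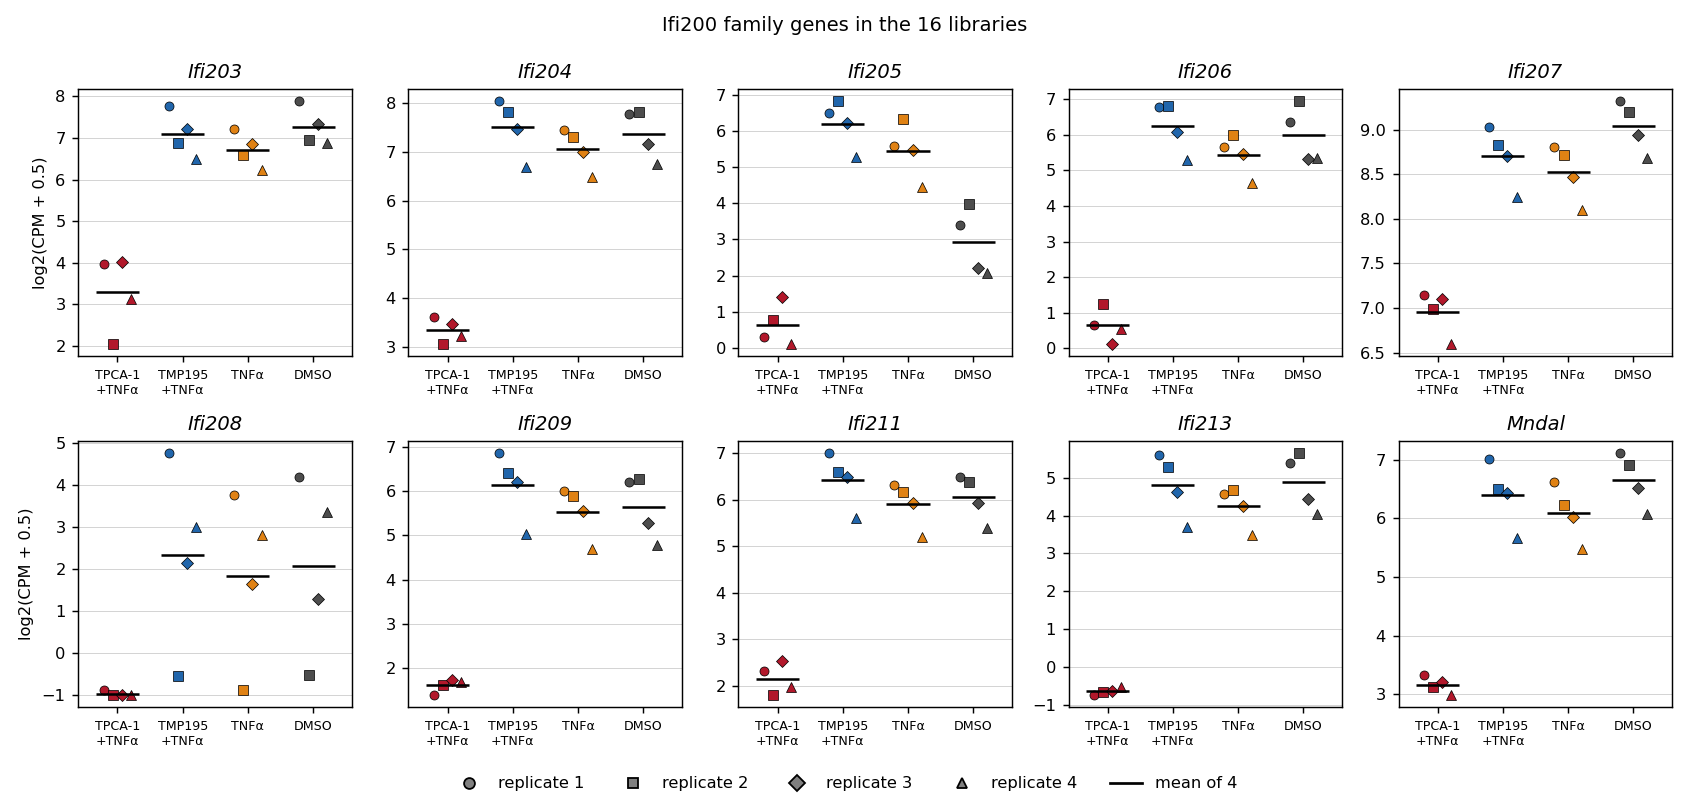
Level of each of the 10 genes as log2(CPM + 0.5) in each library, by group, with 1 symbol per replicate number and a line at the mean of the 4. The TPCA-1+TNFα libraries lie lowest in every panel except that of Ifi208, where TNFα 2 is level with the highest of them, only in the Ifi205 panel do all TNFα libraries lie above all DMSO libraries, and in the Ifi208 panel replicate 2 lies near the bottom in all groups.

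Ifi204 encodes p204, which binds the retinoblastoma protein and is known in mouse macrophages as a DNA sensor upstream of STING. In the order of replicate numbers it had 11.7, 7.84, 10.6 and 8.80 CPM in TPCA-1+TNFα, 264, 226, 178 and 104 in TMP195+TNFα, 174, 158, 128 and 88.7 in TNFα, and 218, 225, 144 and 108 in DMSO. The TPCA-1 libraries lay apart from the other 12, which overlapped among themselves. The change in TPCA-1+TNFα against TNFα was -3.80 ± 0.31 (log2 ± SE). Ifi203, which is reported to act with STING in retrovirus sensing in the mouse, had 15.3, 3.65, 15.7 and 8.27 CPM in TPCA-1+TNFα, against 149, 95.1, 115 and 74.0 in TNFα, a change of -3.28 ± 0.38. Mndal, named for its likeness to the human myeloid nuclear differentiation antigen, had 9.48, 8.24, 8.77 and 7.39 CPM in TPCA-1+TNFα, against 97.7, 74.8, 65.0 and 44.1 in TNFα, a change of -3.05 ± 0.30. These 3 genes were lowered to a like degree, with reads left in the TPCA-1 group, 693 of Ifi204, 827 of Ifi203 and 584 of Mndal.

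Ifi207, reported to stabilise STING in the mouse, was the least lowered. It had 141, 126, 137 and 96.4 CPM in TPCA-1+TNFα, 523, 455, 418 and 303 in TMP195+TNFα, 449, 419, 355 and 274 in TNFα, and 639, 589, 493 and 412 in DMSO. Its TPCA-1 libraries did not overlap those of any other group. The change against TNFα was -1.58 ± 0.19, which is 2.99-fold lower. The other members fell further, and Ifi207 held 74.9% to 81.6% of the reads of the 10 genes in TPCA-1+TNFα libraries, 31.6% to 41.8% in TMP195+TNFα, 39.2% to 45.3% in TNFα and 41.3% to 48.9% in DMSO. Per length it was the highest of the 10 in every group, at 36.6 ± 5.93 reads per kb and 1e6 counted reads (RPKM) in TPCA-1+TNFα, 124 ± 26.9 in TMP195+TNFα, 109 ± 22.6 in TNFα and 156 ± 29.6 in DMSO (SD, n = 4 each).

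**Figure D2:**
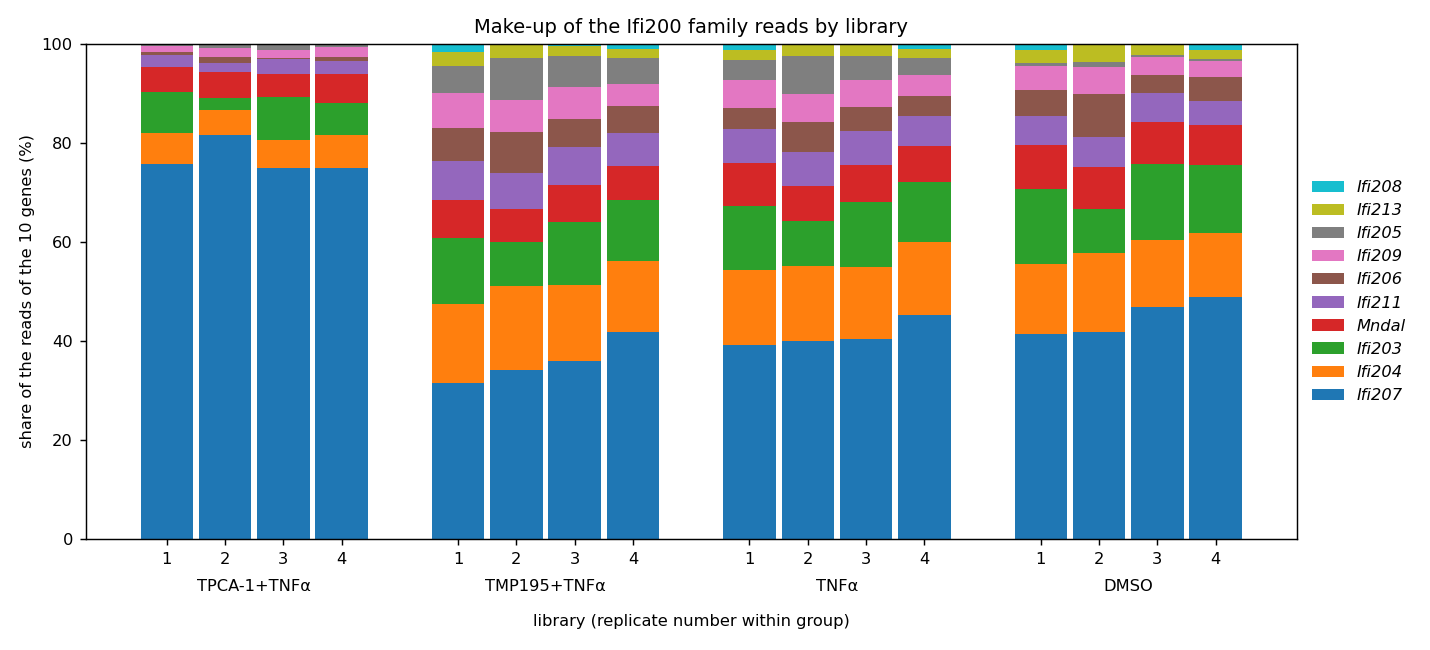
Share of the reads of the 10 genes that each gene held, as stacked percentages per library. Ifi207 takes at least 74.9% in the 4 TPCA-1+TNFα libraries and at most 48.9% in the other 12, and the Ifi205 band is wider in TMP195+TNFα and TNFα than in DMSO.

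Below Ifi207 the order of levels per length was less sharp. In TNFα, Ifi204 followed at 38.5 ± 10.5 RPKM and Ifi211 at 34.6 ± 10.4. Next came Mndal at 19.4 ± 6.14, Ifi203 at 16.1 ± 4.73, Ifi206 at 14.9 ± 5.24, Ifi209 at 13.7 ± 4.83 and Ifi205 at 11.5 ± 5.85. The ranges of neighbours overlapped throughout these 7 genes. Ifi213 at 2.85 ± 0.942 RPKM lay below them without overlap and overlapped Ifi208 at 1.07 ± 1.09. In DMSO the order was Ifi207, Ifi204, Ifi211, Mndal, Ifi203, Ifi206, Ifi209, Ifi213, Ifi205 and Ifi208, with gaps only after Ifi207 and after Ifi209. Ifi205 was thus 9th of the 10 in DMSO, at 1.99 ± 1.31 RPKM. In TPCA-1+TNFα the range of Ifi213 at 0.0211 ± 0.00584 RPKM lay below that of every gene but Ifi208, which was lower still.

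Ifi206, Ifi209 and Ifi211 lay between these ends. Ifi206 had 1.08, 1.89, 0.594 and 0.972 CPM in TPCA-1+TNFα, against 49.8, 63.3, 43.6 and 24.8 in TNFα, a change of -5.47 ± 0.53. Ifi209, the gene without the ISRE letters in its window, had 2.10, 2.57, 2.82 and 2.72 CPM in TPCA-1+TNFα, against 63.3, 59.3, 46.2 and 25.3 in TNFα, a change of -4.24 ± 0.45. Ifi211 had 4.50, 2.97, 5.25 and 3.40 CPM in TPCA-1+TNFα, against 78.9, 71.0, 60.9 and 36.2 in TNFα, a change of -3.90 ± 0.34. The TPCA-1+TNFα and TNFα ranges did not overlap in any of these 3 genes.

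Ifi213 and Ifi208, which RefSeq also lists as Pydc4 and Pydc3, nearly vanished from the counts. Ifi213 had 2, 1, 3 and 4 reads in the TPCA-1+TNFα libraries, 882, 818, 455 and 292 in TMP195+TNFα, 410, 513, 568 and 222 in TNFα, and 784, 1014, 476 and 309 in DMSO. Summed over the 4 libraries and scaled for depth it was 132-fold lower in TPCA-1+TNFα than in TNFα (95% exact interval 71.5 to 276, counting error only). Ifi208 had 1, 0, 0 and 0 reads in TPCA-1+TNFα, 491, 4, 75 and 177 in TMP195+TNFα, 232, 1, 80 and 136 in TNFα, and 341, 4, 44 and 188 in DMSO. A total of 1 read against 449 in TNFα is 346-fold lower after scaling for depth, with an interval of 61.7 to 13684, and without the libraries numbered 2 it is 399-fold lower, with an interval of 71.2 to 15792. Its pass in the fit was lost when any 1 of the 4 TPCA-1+TNFα libraries or TNFα 1 was left out, where the log2 fold change was -7.22 to -9.79. The reads of Ifi208 spread widely also outside TPCA-1, and 1 library, replicate 1, held the most in each of the other groups.

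**Figure D3:**
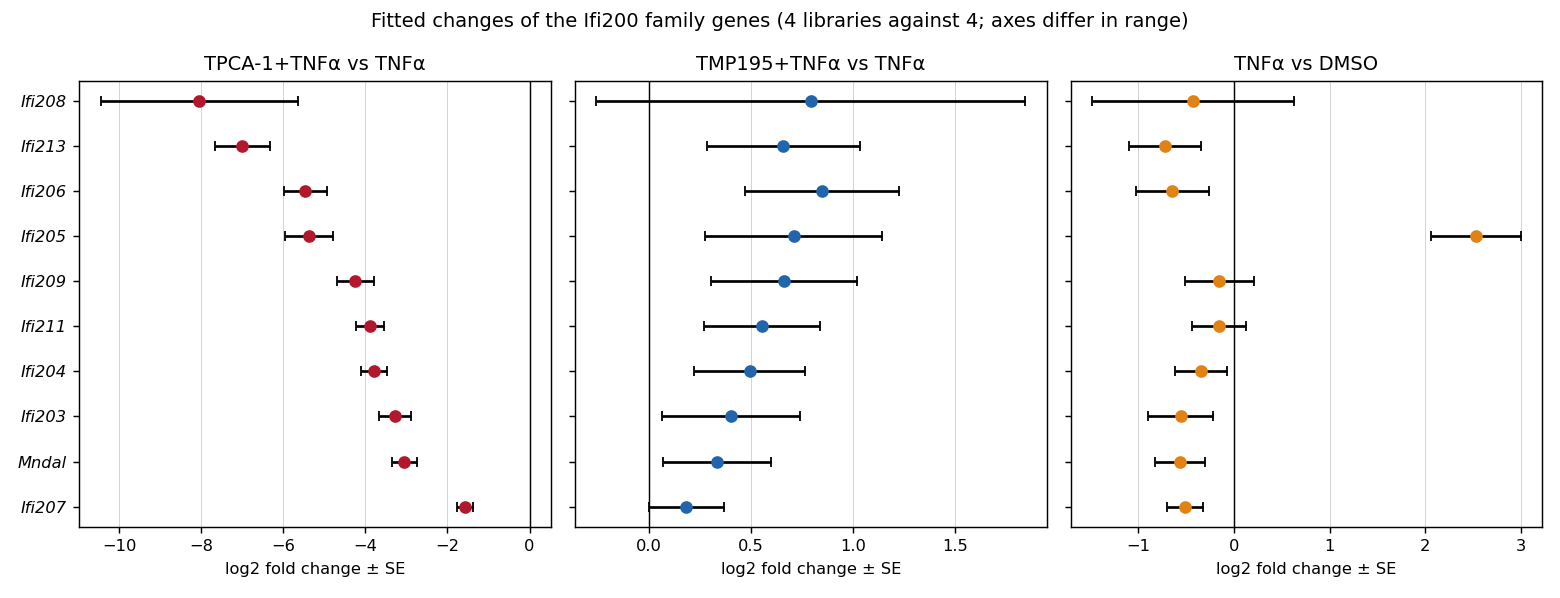
Fitted log2 fold change ± SE of the 10 genes in 3 contrasts, 4 libraries against 4, ordered by the change under TPCA-1, with axes of different range. All points lie left of 0 for TPCA-1+TNFα against TNFα and right of 0 for TMP195+TNFα against TNFα, and for TNFα against DMSO only Ifi205 lies right of 0.

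Against DMSO the TPCA-1 cells were as low. All 10 genes were called lower in TPCA-1+TNFα than in DMSO, against 15.5% of all genes, with a median log2 fold change of -4.10. Ifi205 stood at -2.84 ± 0.59 there, so its level with TPCA-1 and TNFα was under that of cells that had received no TNFα. These contrasts share the TPCA-1 libraries. Without TPCA-1+TNFα 2 the median of the 10 against TNFα was -4.04 and 9 of the 10 passed, with Ifi208 the exception, and without all 4 libraries numbered 2 it was -3.94 and 10 passed.

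TNFα alone raised 1 member. The macrophage marker, S100a8 and Cd4 levels given above moved between the same groups, and their part was not tested. Ifi205 encodes p205, which is reported in mouse macrophages to control expression of Pycard, the inflammasome adaptor ASC. It had 47.3, 80.4, 43.5 and 21.1 CPM in TNFα, against 10.1, 15.2, 4.16 and 3.69 in DMSO. The groups did not overlap, and 12.9% of all genes tested likewise had TNFα wholly above DMSO. The fitted change was 2.53 ± 0.47, or 5.79-fold. Within each replicate number the log2 difference was 2.17 to 3.24. Without the libraries numbered 2 it was 2.64. With TPCA-1 the same stimulus left 0.733, 1.22, 2.13 and 0.583 CPM, against which the TNFα libraries did not overlap either, a change of -5.37 ± 0.59. Pycard itself fell in TNFα against DMSO, by 0.41 ± 0.13 on the log2 scale (adjusted p = 0.0324). It was also called lower in TPCA-1+TNFα than in DMSO, where Ifi205 was lower too. Pycard was likewise called lower in TMP195+TNFα than in DMSO, where Ifi205 was higher. A link between these genes was not tested.

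The other 9 members were fitted lower in TNFα than in DMSO, by amounts from -0.15 ± 0.36 for Ifi209 to -0.72 ± 0.38 for Ifi213. In the fit without a replicate block, 1 of the 10 passed as higher, against 10.9% of all genes, and 0 as lower, against 12.4%. Of the 10, 2 were lower at an unadjusted p under 0.05. In DESeq2 1 passed as lower, where 3336 of all 12612 genes were called in either direction. The labels state no pairing, and equal replicate numbers were taken to pair these groups from correlations in the same counts. The replicate block was fitted over all 16 libraries, also those with TPCA-1, which did not pair throughout. With the block 1 passed as higher, against 15.1%, and 5 as lower, against 16.9%. Those 5 were Ifi203, Ifi206, Ifi207, Ifi213 and Mndal. Ifi207, with -0.51 ± 0.19, was the gene that passed in DESeq2, and it passed without the filter on low counts, and when TNFα 1, DMSO 4 or TMP195+TNFα 4 was left out. Its difference within replicate numbers was -0.47 to -0.59 in all 4, and Mndal had -0.48 to -0.67. Ifi206, Ifi208, Ifi209 and Ifi211 were each higher in TNFα in 1 of the 4 numbers.

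With TMP195 the family was fitted slightly higher, not lower. Levels of the macrophage markers, S100a8 and Cd4, given above, also moved between TMP195+TNFα and TNFα, and their part was not tested. All 10 genes were fitted higher in TMP195+TNFα than in TNFα, by 0.18 ± 0.19 for Ifi207 up to 0.85 ± 0.38 for Ifi206, with a median of 0.61 on the log2 scale against 0.02 over all genes. Within every replicate number each of the 10 was higher with TMP195. The share of all genes that did so was not computed, and the 10 genes share the same libraries. The groups overlapped in all 10, while in 8.03% of all genes tested TMP195+TNFα lay wholly above TNFα. In the fit without a replicate block 0 of the 10 passed by edgeR, against 2.95% of all genes called higher, and 1 had an unadjusted p under 0.05. In DESeq2 0 passed, where 1209 of all 12612 genes were called in either direction. With the replicate block 6 passed, against 6.91%: Ifi204, Ifi205, Ifi206, Ifi209, Ifi211 and Ifi213. Ifi205 had 90.2, 112, 73.3 and 38.4 CPM in TMP195+TNFα, and its change against TNFα was 0.71 ± 0.43, or 0.76 ± 0.20 with the replicate block. Ifi206 had 109.9, 111, 67.3 and 38.9 CPM in TMP195+TNFα, against the 24.8 to 63.3 of TNFα.

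Set against DMSO, the TMP195+TNFα cells were high in Ifi205 alone, which was 3.24 ± 0.48 higher on the log2 scale, and the others ran from -0.33 ± 0.19 for Ifi207 to 0.51 ± 0.36 for Ifi209. The count was 1 of 10 higher, against 13.6% of all genes. With the replicate block 2 passed as higher, Ifi205 and Ifi211, against 17.9%, and 1 as lower, Ifi207, against 18.8%. The inhibitors differed from each other in all 10 genes, each higher in TMP195+TNFα than in TPCA-1+TNFα, against 13.1% of all genes called higher, by a median of 4.68 on the log2 scale. TMP195 and TPCA-1 were used at different doses and are not structural analogs, so the values stand side by side only.

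Ifi208 was the member that nearly vanished from the libraries numbered 2. It had 0, 4, 1 and 4 reads in the libraries numbered 2 of TPCA-1+TNFα, TMP195+TNFα, TNFα and DMSO. Outside TPCA-1 the other numbers held 44 to 491 reads. Ifi202b, which lies between Ifi203 and Ifi205, had 2, 19, 14 and 15 reads in the libraries numbered 2, in the same order of groups. In the other numbers it had 283, 254 and 205 reads in TPCA-1+TNFα, 4567, 2935 and 2100 in TMP195+TNFα, 2601, 3075 and 1278 in TNFα, and 2866, 2022 and 1095 in DMSO. Its change in TPCA-1+TNFα against TNFα was -3.003 ± 1.31 (adjusted p = 0.120), and without the libraries numbered 2 it was -3.10 ± 0.44 (adjusted p = 0.000587). Ifi204 was not low in these libraries, with 4826, 3223 and 4560 reads in TMP195+TNFα 2, TNFα 2 and DMSO 2.

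**Figure D4:**
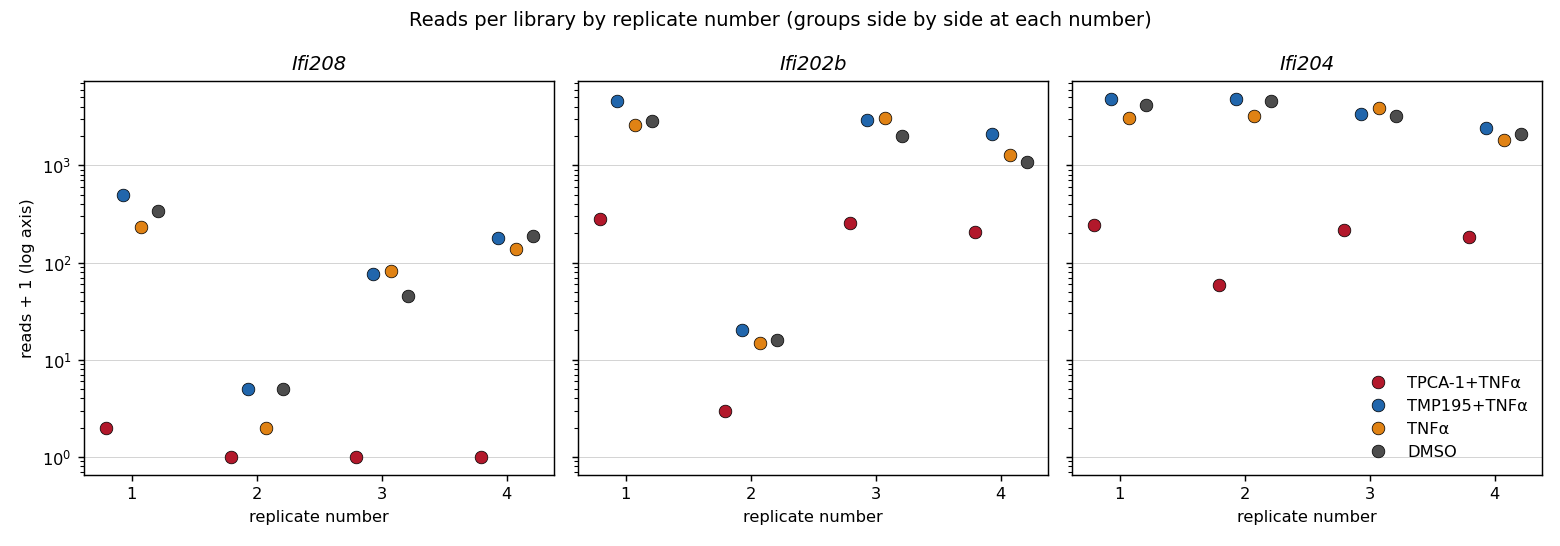
Reads + 1 on a log axis of Ifi208, Ifi202b and Ifi204 in each library, by replicate number and group. At number 2, Ifi208 and Ifi202b have at most 19 reads in any group, while Ifi204 has at least 3223 outside TPCA-1+TNFα.

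The 4 further genes of the cluster in the files were all fitted lower in TPCA-1+TNFα than in TNFα, Aim2 by the least. Aim2, the inflammasome DNA sensor, had 25.7, 18.2, 16.8 and 22.4 CPM in TPCA-1+TNFα, against 31.1, 29.5, 29.8 and 21.7 in TNFα. The groups overlapped, and the change was -0.43 ± 0.17 (adjusted p = 0.0841). Against DMSO the TPCA-1+TNFα group stood at -0.45 ± 0.17 for Aim2 (adjusted p = 0.0488). Aim2 was also 0.53 ± 0.17 higher in TMP195+TNFα than in TPCA-1+TNFα (adjusted p = 0.0277). Neither passed without TPCA-1+TNFα 2 (adjusted p = 0.114 and 0.0708). Ifi214 was low everywhere, with 5, 0, 0 and 2 reads in TPCA-1+TNFα, against 33, 10, 38 and 11 in TNFα, and it fell by 3.28 ± 0.86 on the log2 scale (adjusted p = 0.0126). The pseudogene Ifi203-ps fell by 3.59 ± 0.63 (adjusted p = 0.000621), with 26 reads in all in TPCA-1+TNFα against 393 in TNFα. Without a replicate block none of these 4 passed in TNFα against DMSO or in TMP195+TNFα against TNFα. Ifi203-ps fell by 1.19 ± 0.23 in TNFα against DMSO with the replicate block (adjusted p = 0.000905), and in the same fit Ifi202b rose by 0.62 ± 0.14 in TMP195+TNFα against TNFα (adjusted p = 0.00698). Of the 6 nearest tested genes beyond the cluster 2 fell and 0 rose in TPCA-1+TNFα against TNFα, against 9.72% and 9.67% of all genes. Vsig8, Dusp23, Fh1 and Opn3 did not pass. Slamf8, 878 kb before the cluster, fell by 1.69 ± 0.20 (adjusted p = 1.36e-05), and Fh1, 1569 kb after it, stood at 0.09 ± 0.11 (adjusted p = 0.590). The olfactory receptor gene Olfr433, 8.90 kb after the cluster, fell by 2.86 ± 0.71 (adjusted p = 0.00942). In TNFα against DMSO Olfr433 rose by 2.48 ± 0.64 (adjusted p = 0.00856), Slamf8 by 1.84 ± 0.20 (adjusted p = 2.71e-06) and Opn3 by 1.25 ± 0.29 (adjusted p = 0.00376). Vsig8, Dusp23 and Fh1 did not pass there. In TMP195+TNFα against TNFα Slamf8 rose by 0.98 ± 0.19 (adjusted p = 0.00476), and Olfr433 stood at 0.74 ± 0.46 (adjusted p = 0.440).

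Interferon-stimulated genes outside the family fell with it. Of 40 listed genes 39 were tested, and all 39 passed as lower in TPCA-1+TNFα than in TNFα, against 9.72% of all genes. Their median log2 fold change was -3.57, against 0.02 over all genes. Oasl2, Oas3 and Oas1a, members of the 2′-5′-oligoadenylate synthetase family, had the smallest adjusted p-values: Oasl2 fell by 5.78 ± 0.20 (adjusted p = 5.51e-12), Oas3 by 5.55 ± 0.19 (adjusted p = 5.51e-12) and Oas1a fell by 3.11 ± 0.12 (adjusted p = 1.03e-11). In TNFα against DMSO 4 of the 39 rose and 1 fell, against 10.9% and 12.4% of all genes. Gbp2, a guanylate-binding protein, was up by 1.38 ± 0.27 (adjusted p = 0.000919), Gbp3 up by 1.05 ± 0.28 (adjusted p = 0.0113) and Ifi27l2a down, at -1.05 ± 0.20 (adjusted p = 0.000901). In TMP195+TNFα against TNFα 2 of the 39 rose and 0 fell, against 2.95% and 3% of all genes. Oasl1 rose by 1.04 ± 0.23 (adjusted p = 0.0123) and Rsad2, which encodes viperin, by 1.38 ± 0.38 (adjusted p = 0.0406). With the replicate block 7 rose and 5 fell in TNFα against DMSO, against 15.1% and 16.9% of all genes. In the same fit 7 rose and 0 fell in TMP195+TNFα against TNFα, against 6.91% and 6.56%.

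**Figure D5:**
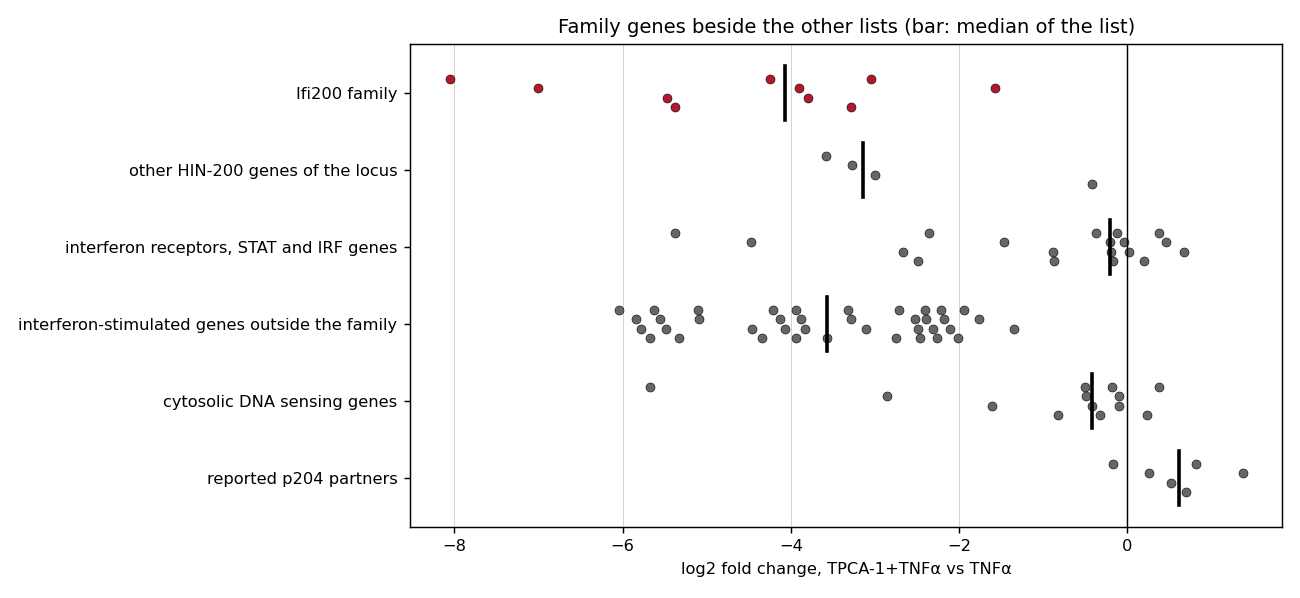
Log2 fold change in TPCA-1+TNFα against TNFα of each tested gene, by list, with a bar at the median. The Ifi200 family has its median at -4.07 and the interferon-stimulated genes at -3.57, and the medians of the other lists except that of the cluster lie between -0.42 and 0.61.

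Genes that carry the interferon signal fell in part. Of 21 listed receptor, kinase, STAT and IRF genes 19 were tested. In TPCA-1+TNFα against TNFα 9 fell and 2 rose, against 9.72% and 9.67% of all genes, with a median of -0.20. Irf7, the interferon regulatory factor that amplifies type I interferon, had 4.55, 6.76, 5.94 and 5.11 CPM in TPCA-1+TNFα, against 277, 190, 234 and 211 in TNFα, and fell by 5.38 ± 0.25 (adjusted p = 2.98e-10). Stat2 fell by 2.67 ± 0.19 (adjusted p = 3.52e-08) and Irf9, its DNA-binding partner, by 2.49 ± 0.12 (adjusted p = 5.90e-10). Usp18, a feedback inhibitor of the receptor, fell by 4.48 ± 0.23 (adjusted p = 9.29e-10), and Irf1 fell by 0.89 ± 0.17 (adjusted p = 0.00142). Ifnb1, the interferon beta gene, had 0 to 3 reads in every library and was not tested. Against 10.9% of all genes called higher and 12.4% lower, 2 rose and 1 fell in TNFα against DMSO. Those were Socs1, a feedback inhibitor of JAK kinases, up by 1.88 ± 0.27 (adjusted p = 4.69e-05), Jak2, up by 0.83 ± 0.13 (adjusted p = 0.000148), and Ifngr1, down, at -0.36 ± 0.11 (adjusted p = 0.0308). In TMP195+TNFα against TNFα only Socs1 passed, at -1.01 ± 0.25 (adjusted p = 0.0244), against 3% of all genes called lower. With the replicate block 5 rose and 1 fell in the first of these contrasts, against 15.1% and 16.9% of all genes. In the second 0 rose and 2 fell, against 6.91% and 6.56%.

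Genes of cytosolic DNA sensing, in which several family proteins take part, fell in part. Of 13 tested, 6 fell and 0 rose in TPCA-1+TNFα against TNFα, against 9.72% and 9.67% of all genes, with a median of -0.42. Among them the nucleic acid sensor Zbp1 fell by 5.67 ± 0.34 (adjusted p = 4.89e-09), Il18 by 1.61 ± 0.22 (adjusted p = 5.87e-05) and Il1b by 2.86 ± 0.43 (adjusted p = 0.000142). Zbp1 is also on the list of interferon-stimulated genes. In TNFα against DMSO 1 rose, Il1b by 3.45 ± 0.44 (adjusted p = 1.43e-05), and Pycard fell, against 10.9% and 12.4% of all genes. With the replicate block 3 rose and 1 fell in TNFα against DMSO, against 15.1% and 16.9% of all genes. In DESeq2 without the block 3 rose and 1 fell, where 3336 of all 12612 genes were called in either direction. In TMP195+TNFα against TNFα 0 of the 13 passed by edgeR and 0 by DESeq2, and 2 had an unadjusted p under 0.05. Of all 12612 genes tested, edgeR called 750 and DESeq2 1209 in either direction. With the replicate block 2 fell, against 6.56% of all genes. Samhd1, the most abundant of the 13, stood at -0.24 ± 0.13 without the block (adjusted p = 0.379).

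Genes whose proteins are reported to bind p204 did not fall with Ifi204. Of 6 tested, 3 rose and 0 fell in TPCA-1+TNFα against TNFα, against 9.67% and 9.72% of all genes. Id2, a helix-loop-helix inhibitor of differentiation, rose by 0.82 ± 0.15 (adjusted p = 0.000921), Runx2, a transcription factor of bone cells, by 0.70 ± 0.21 (adjusted p = 0.0288), and Id3 by 1.37 ± 0.42 (adjusted p = 0.0309). In TMP195+TNFα against TNFα Id2 rose by 0.63 ± 0.15 (adjusted p = 0.0176) and Runx2 by 0.80 ± 0.21 (adjusted p = 0.0326), against 2.95% of all genes called higher. In TNFα against DMSO 1 of the 6 rose, Runx2, by 1.16 ± 0.22 (adjusted p = 0.000822), against 10.9% of all genes. With the replicate block 2 rose, against 15.1%.

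The genes with the pattern most like the family's mean were sought among 8644 other protein-coding genes with a mean of at least 5 CPM, by the Euclidean distance of centred log2 CPM over the 16 libraries. The 6 nearest were Slfn5 at 1.05, Ddx60 at 1.16, Ifit1 at 1.28, Xaf1 at 1.36, Phf11d at 1.47 and Mx1 at 1.59, none of them on chromosome 1. Slfn5 had 8.65 ± 2.34 CPM in TPCA-1+TNFα, 184 ± 43.9 in TMP195+TNFα, 148 ± 20.1 in TNFα and 183 ± 38.0 in DMSO (SD, n = 4 each). Among the members themselves Ifi211 lay closest to the mean, at 0.93, and Ifi208 farthest, at 7.98. The points of this measure share libraries and depth.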

How the data were processed

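The authors' deposited files hold whole-number read counts per gene, unnormalized, from reads aligned with STAR 2.6.1d (builds mm10 and GRCm38), per the submitters' processing notes. The annotation release and read length are not given in the sources used here. Of 54838 identifiers, 54809 matched GENCODE M21. Counts on the strand that holds the reads were used (3.19% to 3.72% lay on the other). The 4 lines naming no gene, 20.95% to 53.4% of a library, were left out.

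The quasi-likelihood F test of edgeR 4.0.16 (R 4.3.3), checked on simulated data, was run with TMM and filterByExpr in 1 model over the 16 libraries. P-values of its 6 contrasts were adjusted over 12612 genes (Benjamini-Hochberg, threshold 0.05). CPM uses TMM-scaled totals, and RPKM divides it by the union of exons. A floor of 3 counts is 0.0949 to 0.401 CPM, and intervals and floors cover counting error only.

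The members and lists were chosen with earlier results of these data known. Named genes are the members, the other cluster genes, up to 3 per list with the smallest adjusted p past the threshold (else the most abundant), certain STAT and IRF genes, Aim2, Ifnb1 and the 6 most alike genes. Locus neighbours were added. Some of these are not reported here. Sequences are RefSeq's, aligned with Biopython 1.88. After removal of group means, same-number libraries correlated over 0.1 in all pairs among DMSO, TNFα and TMP195+TNFα, so numbers were taken to pair these 3 groups. Alternatives were DESeq2 1.42.0, its size factors, no filter, unstranded counts, the replicate block and leaving out libraries.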

Additional observations from a re-analysis of the deposited data

Results flagged for a closer look

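Ifi208 in TPCA-1+TNFα 1 was far above the other 3 libraries of its group, at 0.0489 CPM against 0 in each, which is a single read. Chance flags about 1 in 20 groups of 4, and 56 groups were examined.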

How the results depend on the processing

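No value of the 10 genes reversed in a call under any alternative run, and no scaling moved the median of all genes by 0.1. The count of members past the threshold in TNFα against DMSO, reported as 1, was 2 without the filter on low counts, 2 with DESeq2 and 6 with the replicate block, and 1 to 2 with a library left out. In TMP195+TNFα against TNFα it was 0, and 6 with the replicate block, and in TMP195+TNFα against DMSO 1, and 3 with the replicate block. It was 10 in the 3 contrasts with TPCA-1, except for 9 in TPCA-1+TNFα against TNFα when TNFα 1 or any TPCA-1+TNFα library was left out, always through Ifi208. Genes of the pathway lists past the threshold in TMP195+TNFα against TNFα numbered 5, with 8 without the filter, 14 with the replicate block, 2 without the libraries numbered 2 (chosen after seeing the data), and 1 to 6 with a library left out. The lower counts, 1 to 3, came without TMP195+TNFα 1, 2 or 3 or TNFα 1, 2 or 4. With the replicate block they numbered 24 in TNFα against DMSO (11 without) and 31 in TMP195+TNFα against DMSO (17 without). The causes were not tested. With TPCA-1, equal numbers did not pair the libraries throughout (18 of 24 correlations over all groups were highest with the own number, lowest -0.0430, highest 0.681), and the replicate block gave Aim2 in TPCA-1+TNFα against TNFα an adjusted p of 0.0227 and Ifi202b 1.14e-09. Depth limits Ifi208, Ifi213 and Ifi214 in TPCA-1+TNFα, where reads are at or near the floor.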

Other observations

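By a criterion chosen after the values were seen, at least 8-fold below all libraries of the other numbers in DMSO, TNFα and TMP195+TNFα, with those at 1 CPM or more, 2 genes were low in the libraries numbered 2, Ifi208 and Ifi202b, which lie in the same cluster. For numbers 1, 3 and 4 the same criterion found 0 genes. No gene was 8-fold high in any number.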
